A study of Mus musculus with 144 samples.

Results

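The 10 genes described here encode proteins that make, coat and break down the triacylglycerol stored in lipid droplets of the liver: Lpin1, Lpin2, Plin2, Plin4, Plin5, Cidec, Cideb, Pnpla2, G0s2 and Dgat2. They were taken by name from the deposited table of counts per gene, where all 10 were found among 51912 genes. RNA was read by 3′ mRNA sequencing (QuantSeq, a method that counts messages by their 3′ ends) in 144 libraries. These form 4 series of 36. Wild-type mice gave total, nuclear and polysomal RNA, and Bmal1-/- mice, in which the gene of the clock transcription factor BMAL1 is disrupted, gave total RNA. Every series has 6 libraries at zeitgeber time (ZT, counted in hours from lights on) 2, 6, 10, 14, 18 and 22. All groups came from male C57BL/6J livers, with 12 h of light and 12 h of dark and food always at hand, and neither the animals' age nor the allele or promoter behind the deletion is in the labels. Nuclei were pelleted through a sucrose cushion, and polysomes, the messages bound by several ribosomes, were taken from a sucrose gradient run with cycloheximide. The labels do not say whether the 6 libraries of a group are separate animals, so p-values measure the spread between these libraries.

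Triacylglycerol is built on glycerol phosphate. The lipins remove the phosphate from phosphatidate to give diacylglycerol, and DGAT2 adds the last fatty acid. Perilipins (Plin genes) coat the droplet surface, CIDE proteins (Cidec and Cideb) work in droplet fusion and in loading lipoproteins, and PNPLA2 (adipose triglyceride lipase) starts the breakdown, which G0S2 inhibits. In the liver these steps follow the daily swing between feeding and fasting.

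Promoter sequence is shown for 4 of the genes because all 4 had a daily rhythm in wild-type total RNA and their start regions hold letters that clock factors or nuclear receptors are known to read. The windows run from 250 bases before to 10 bases after the annotated start and are RefSeq sequences of build GRCm38.p6. Capitals mark CACGTG (the E-box letters, which BMAL1 with its partner CLOCK is known to bind) and AGGTCA or its reverse complement TGACCT (the half-site of nuclear receptors), both searched on both strands. The Plin2 window is chr4:86670050-86670309 (minus strand), the Lpin2 window chr17:71183282-71183541 (plus strand), the Lpin1 window chr12:16610957-16611216 (minus strand) and the Plin5 window chr17:56117539-56117798 (minus strand).
Plin2: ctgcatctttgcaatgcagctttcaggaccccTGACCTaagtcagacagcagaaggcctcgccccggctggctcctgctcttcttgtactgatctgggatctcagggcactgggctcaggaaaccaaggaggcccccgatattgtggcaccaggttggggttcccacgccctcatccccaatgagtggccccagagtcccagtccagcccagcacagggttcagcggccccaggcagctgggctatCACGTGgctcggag
Lpin2: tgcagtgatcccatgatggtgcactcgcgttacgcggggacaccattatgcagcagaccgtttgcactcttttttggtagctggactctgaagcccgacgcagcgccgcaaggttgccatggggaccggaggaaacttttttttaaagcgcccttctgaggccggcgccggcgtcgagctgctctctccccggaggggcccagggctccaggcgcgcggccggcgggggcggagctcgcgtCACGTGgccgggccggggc
Lpin1: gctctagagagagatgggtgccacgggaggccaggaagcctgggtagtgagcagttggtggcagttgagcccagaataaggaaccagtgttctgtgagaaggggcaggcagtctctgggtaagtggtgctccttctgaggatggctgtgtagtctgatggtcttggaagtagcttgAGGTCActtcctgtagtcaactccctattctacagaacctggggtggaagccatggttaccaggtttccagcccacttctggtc
Plin5: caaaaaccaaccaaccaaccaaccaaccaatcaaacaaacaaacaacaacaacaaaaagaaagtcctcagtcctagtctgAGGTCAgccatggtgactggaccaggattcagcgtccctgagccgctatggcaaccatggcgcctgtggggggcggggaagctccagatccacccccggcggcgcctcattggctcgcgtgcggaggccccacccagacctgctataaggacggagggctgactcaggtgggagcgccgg
The 9 genes with a promoter entry have 13 such windows, as Lpin2 has 3 annotated starts and Plin5 and Cidec have 2 each, and for Lpin2 and Plin5 the window with a match is shown. CACGTG was present in 2 of the 13, starting 4 bases before the start of Plin2 and 9 before that of Lpin2, and in 6.34% of all 32851 promoter windows of this length. AGGTCA was present in 3 of the 13, of Plin2, Lpin1 and Plin5, and in 14.5% of all windows. Counted by gene, with a match in any of its windows, these are 2 and 3 of 9 genes against 7.22% and 16.3% of all 27025 genes. The D-box letters and 2 half-sites spaced by 1 base were found in 0 of the 13, against 0.843% and 0.033% of all windows. A match says only that these letters are there. Dgat2 was not among the 9. The Lpin1 window lies inside the annotated span of the gene (16535669 to 16653903), and the region before the outer end of that span was not searched.

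Summed over genes, a library held between 1662449 and 14281894 counts, and levels are given as CPM (counts scaled to the same sum, 1 CPM being 1 count in 1000000, in every library). The 7 hepatocyte markers, Alb and Apoa1 among them, summed to a median of 67422 CPM in wild-type and 52835 CPM in Bmal1-/- total RNA, so the liver label held in both. The Bmal1 gene itself (Arntl) was counted in both genotypes, at 0.251 to 19.3 CPM in wild-type and 5.17 to 18.6 CPM in Bmal1-/- total libraries. Counts at the 3′ end check nothing where the deleted part lies elsewhere, and the labels do not place it. Its target genes Dbp and Nr1d1 went with the labels: Dbp reached 137 CPM in wild-type libraries but 4.77 CPM at most in Bmal1-/- libraries, and Nr1d1 had means of 14.8 and 0.713 CPM. Per2, also checked, did not differ in mean level (28.8 and 28.7 CPM). Its libraries ran from 3.02 to 71.1 CPM in wild-type and from 13.8 to 42.6 CPM in Bmal1-/- total RNA. In each series 1 library, always at ZT22, held more than 100 CPM of Xist, a female transcript, against the label male, and calls of these genes that change without these 4 libraries are given as such. A wild-type library at ZT2 (replicate 4) was the least like its series. In bulk RNA fewer cells of a type and less RNA per cell cannot be told apart.

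In wild-type total RNA the order of the mean levels was Plin2, Cideb, Dgat2, Lpin2, G0s2, Lpin1, Plin5, Pnpla2, Plin4 and Cidec. A 3′ method gives about 1 count per transcript whatever its length, so these levels can be set side by side. Plin2, the main perilipin of hepatocytes, stood at 279 ± 94.7 CPM, Cideb at 263 ± 48.1 CPM and Dgat2 at 242 ± 50.5 CPM (SD, n = 36 libraries), and these neighbours lay within 1 SD of each other. Lpin2 followed at 153 ± 63.6 CPM, G0s2 at 116 ± 70.7 CPM and Lpin1 at 71.2 ± 52.7 CPM, again each within 1 SD of its neighbour. Plin5, the perilipin of oxidative tissues, and Pnpla2 were at 44.0 ± 17.4 and 39.6 ± 12.4 CPM. Plin4 and Cidec were rare, at 4.19 ± 4.38 and 2.50 ± 3.43 CPM, and their SDs were as large as the means. Cidec was at 0 in at least 1 library of every series.

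Over the day 6 of the 10 genes, the 2 lipins, Plin2, Plin5, Pnpla2 and Dgat2, rose and fell in wild-type total RNA. The rhythm test fitted a cosine of 24 h to the counts with edgeR's quasi-likelihood test and adjusted p with Benjamini-Hochberg over all genes tested. It called 6 of 10 at an adjusted p below 0.05, against 18.9% of all 11964 genes. Peaks fell at 3 parts of the day: Plin2 after lights on, Pnpla2 and the lipins around lights off together with Dgat2, and Plin5 in the night.

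Lpin1, the lipin known to respond to fasting, had the largest swing. Its 6 wild-type libraries at ZT2 ran from 19.5 to 31.4 CPM with a median of 22.5, and those at ZT10 from 85.5 to 176 CPM with a median of 110, so the 2 groups did not overlap. The fitted peak-to-trough ratio was 4.67-fold with a peak at ZT14.0 (adjusted p = 1.24e-04). Lpin2, its paralogue, ran from 71.4 to 138 CPM (median 104) at ZT2 and from 169.8 to 294 CPM (median 263) at ZT10. No library at ZT2 reached the lowest at ZT10. Its fitted ratio was 2.03-fold with a peak at ZT11.6 (adjusted p = 0.00116).

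Pnpla2, the lipase, peaked within an hour of Lpin2 in the fit. Its libraries ran from 48.5 to 72.5 CPM at ZT10 (median 56.1) and from 27.3 to 36 CPM at ZT2 (median 29.7), with no overlap. The ratio was 1.78-fold with a peak at ZT10.7 (adjusted p = 9.63e-05). Dgat2, the last enzyme of triacylglycerol synthesis, had a shallow rhythm: 191 to 351 CPM at ZT14 (median 290) against 172 to 234 CPM at ZT22 (median 209), and these groups overlapped. The fitted ratio was 1.48-fold with a peak at ZT14.0 (adjusted p = 0.00138). Dgat2 did not pass without the wild-type libraries high in Cfd, an adipocyte gene (adjusted p = 0.127).

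The 2 rhythmic perilipins peaked at different times. Plin5 ran from 43.6 to 98.1 CPM at ZT22 (median 56.6) and from 19.6 to 32.7 CPM at ZT6 (median 24.8), with a 2.78-fold ratio, a peak at ZT19.7 and the smallest adjusted p of the 10 genes (3.96e-09). Plin2 ran from 264 to 437 CPM at ZT2 (median 331) and from 165 to 277 CPM at ZT14 (median 184). Only the extremes of those Plin2 groups met. Its ratio was 1.77-fold with a peak at ZT2.8 (adjusted p = 0.00255). The Plin2 rhythm did not pass in replicates 1 to 3 alone (adjusted p = 0.176).

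The other 4 genes did not pass. G0s2, the inhibitor of PNPLA2, had a fitted ratio of 2.26-fold with a peak at ZT18.6 and an adjusted p of 0.0717, and its libraries at ZT18 ran from 92.4 to 273 CPM. DESeq2 gave an adjusted p of 0.0454 for it. Cidec (2.52-fold, adjusted p = 0.517) and Plin4 (1.97-fold, adjusted p = 0.464) were low in every group and varied widely within each. Cideb was the steadiest, with time-point means between 240 and 281 CPM and a ratio of 1.09-fold. With the libraries numbered 4 to 6 alone, 3 of the 9 genes with enough counts were called, against 5.33% of all genes in that fit. Lpin1 (adjusted p = 0.0635), Lpin2 (0.0805) and Dgat2 (0.264) did not pass there.

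**Figure D1:**
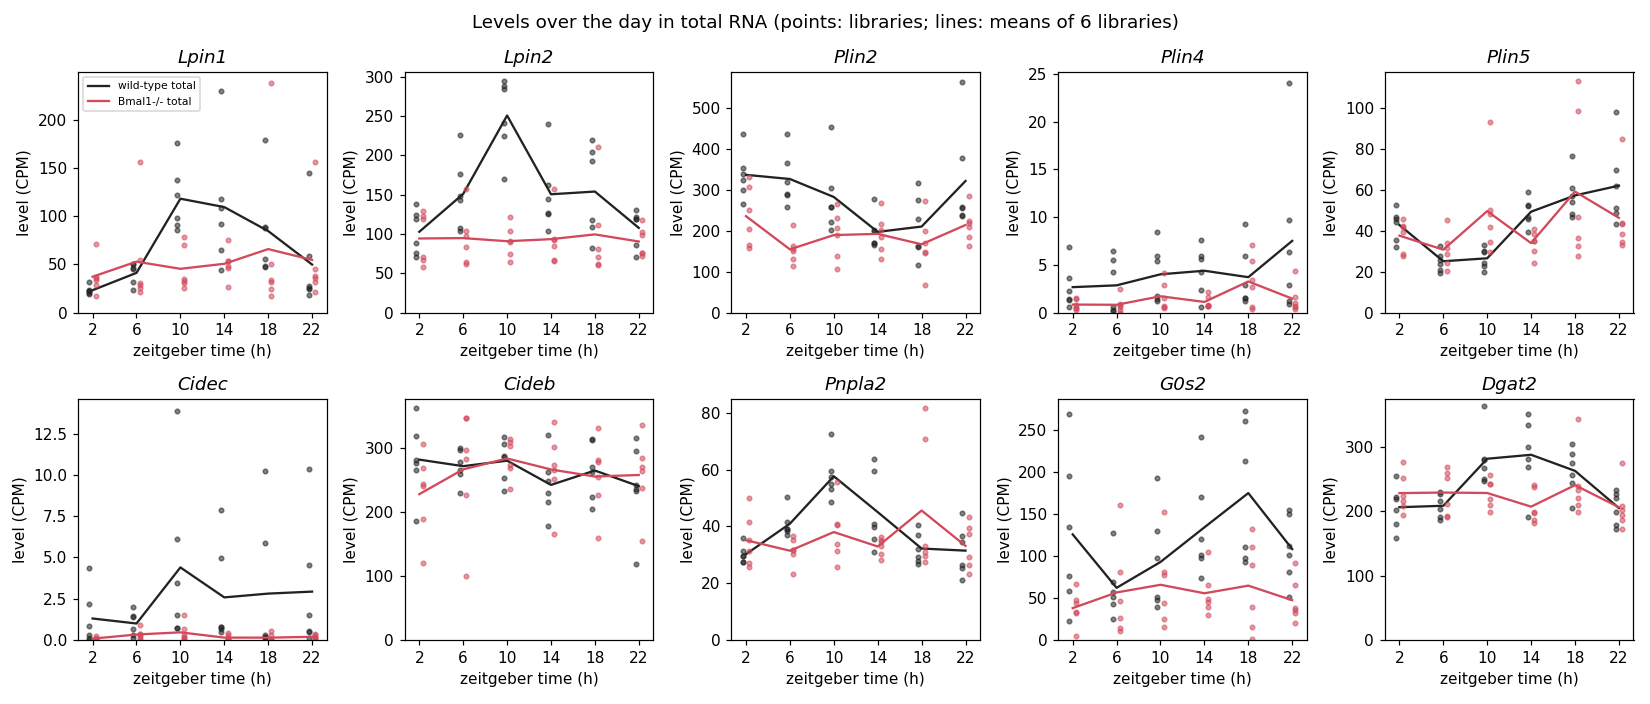
Levels of the 10 genes in CPM (vertical axes, linear) against zeitgeber time in hours, with 1 point per library and lines through the means of 6 libraries in wild-type (black) and Bmal1-/- (red) total RNA. Lpin2 stands at 251 CPM on average at ZT10 in wild-type RNA and at 90.9 CPM in Bmal1-/- RNA, where its line is flat.

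In Bmal1-/- total RNA none of these rhythms was called. The same test passed 0 of the 9 genes with enough counts (Cidec averaged under 10 counts per library), against 0.00825% of all genes, which is 1 gene. At an unadjusted p below 0.05, 1 of the 9 and 491 of all genes passed, and DESeq2 called 0 genes. The Lpin2 line was flat, with time-point means from 90.5 to 99.5 CPM and a fitted ratio of 1.02-fold. Dgat2 kept to means between 206 and 240 CPM (1.07-fold), and Pnpla2 to 1.18-fold.

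The difference in rhythm between the genotypes was tested itself, as an interaction of genotype with the cosine. It passed for 2 of 10 genes, against 5.11% of all genes: Dgat2 (adjusted p = 0.0239) and Pnpla2 (adjusted p = 0.0354). Lpin2 (0.0651), Plin5 (0.0701) and Lpin1 (0.0817) gave adjusted p just above the threshold, and DESeq2 called these 3 as well, 5 in all. Plin2 gave an adjusted p of 0.382. With replicates 4 to 6 alone 0 of 9 were called (1.66% of all genes), and with replicates 1 to 3 alone 1 of 10 was (1.96%). Without the wild-type libraries high in Cfd Dgat2 was at an adjusted p of 0.243. On simulated counts with the same numbers of libraries the interaction test found 54 of 100 genes with a 2-fold and 11 of 100 with a 1.5-fold difference, so a miss here does not show equal rhythms.

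Averaged over the day, 7 of the 10 genes were lower in Bmal1-/- than in wild-type total RNA and 0 were higher. Of all 12082 genes tested 44.2% were called, 22.4% lower and 21.7% higher. The median change of the 10 genes was -0.50 on the log2 scale, against -0.00 over all genes. G0s2, Lpin2 and Plin2, which are well expressed, were lower at all 6 time points, as were the rare Cidec and Plin4. Of these, Cidec met the count minimum only through the wild-type libraries. Dgat2 and Pnpla2 were not lower throughout: their time-point means were higher in Bmal1-/- RNA at 3 times and lower at 3. The log2 ratios of their mean CPM were -0.12 and -0.14, against -0.21 for both in the fit.

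Among the genes of synthesis, Lpin2 fell from 153 ± 63.6 to 93.9 ± 32.9 CPM (SD, n = 36 each), a log2 change of -0.74 (SE 0.10, adjusted p = 1.77e-08). Dgat2 changed by -0.21 (SE 0.06, adjusted p = 0.00195), from 242 to 223 CPM. Lpin1 was at 71.2 CPM in wild-type and 51.2 CPM in Bmal1-/- RNA, a log2 difference of -0.39 that did not pass (SE 0.20, adjusted p = 0.118). Its time-point means were higher in Bmal1-/- RNA at 3 times and lower at 3.

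Among the coat genes, Plin2 fell from 279 ± 94.7 to 192 ± 58.1 CPM (log2 -0.62, SE 0.09, adjusted p = 1.23e-07). Plin4 changed from 4.19 to 1.54 CPM (log2 -1.67, SE 0.30, adjusted p = 6.28e-06). Plin5 stood at 44.0 and 43.0 CPM and did not pass (log2 -0.08, adjusted p = 0.524). Of the CIDE genes, Cidec changed from 2.50 ± 3.43 to a mean of 0.2203 CPM with an SD of 0.305 (log2 -3.56, SE 0.45, adjusted p = 1.23e-09), while Cideb stood at 263 and 259.2 CPM (log2 -0.13, adjusted p = 0.202). Cidec averaged 21.3 counts per library in wild-type and 1.72 in Bmal1-/- RNA. It thus entered the test only through the wild-type libraries, and the size of its fall is poorly measured. In lipolysis, G0s2 fell from 116 ± 70.7 to 54.6 ± 40.0 CPM (log2 -1.14, SE 0.25, adjusted p = 1.03e-04). Pnpla2, which G0S2 inhibits, changed by -0.21 (SE 0.08, adjusted p = 0.0360), and without the wild-type library at ZT2 that was least like its series its adjusted p was 0.0508.

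The size of several of these changes depended on the replicate numbers. The labels give the numbers no meaning, but wild-type libraries 1 to 3 differed from 4 to 6 in these genes. With replicates 1 to 3 of both genotypes alone, 7 of the 10 genes were called, against 38.8% of all genes in that fit. With replicates 4 to 6 alone 2 of the 9 with enough counts were, against 33.5% of all genes: G0s2 (log2 -1.13, adjusted p = 0.0113), nearly the value of replicates 1 to 3 (-1.15), and Lpin2 (-0.46, adjusted p = 0.0319, against -1.03). There Plin2 was at -0.34 (adjusted p = 0.0553), Plin4 at -0.40 (0.364) and Dgat2 at -0.09 (0.484). Pnpla2 passed in neither set alone (-0.19 and -0.26). In replicates 1 to 3 alone Lpin1 passed too, at -0.58 (adjusted p = 0.0149).

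**Figure D2:**
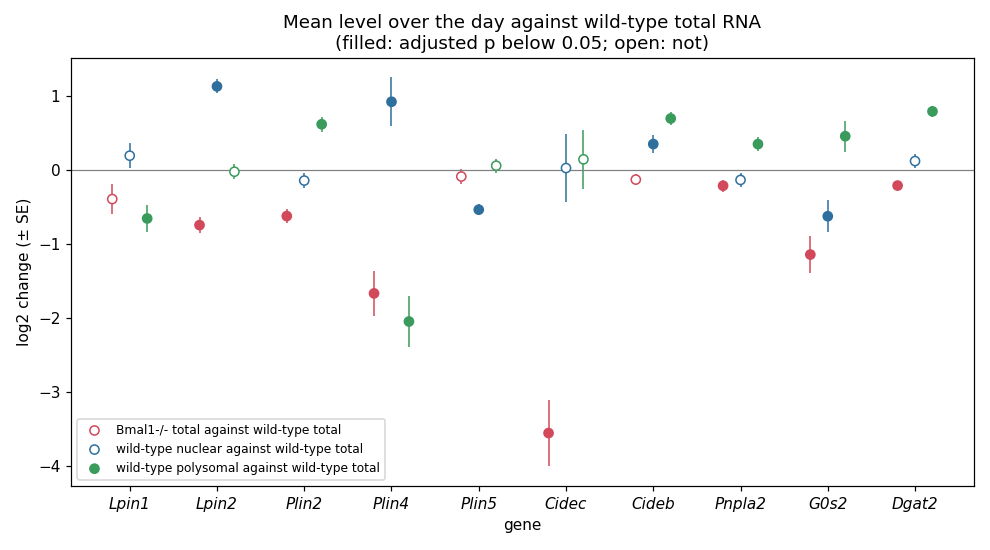
Log2 change of the mean level over the day against wild-type total RNA (vertical axis, with the standard error) for each gene in Bmal1-/- total RNA (red), wild-type nuclear RNA (blue) and wild-type polysomal RNA (green), filled where the adjusted p was below 0.05. Cidec in Bmal1-/- RNA lies lowest at -3.56, and Lpin2 in nuclear RNA highest at 1.14. That Cidec value entered the test only through the counts of the wild-type libraries.

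Cidec and Plin4 showed this most. Cidec ran from 0.152 to 13.9 CPM (median 3.90) in wild-type total libraries 1 to 3 and from 0 to 1.51 CPM (median 0.384) in libraries 4 to 6. In Bmal1-/- RNA it ran from 0 to 1.53 CPM (median 0.0611) and from 0 to 0.638 CPM (median 0.170). Replicates 1 to 3 alone gave a log2 change of -4.46, while in replicates 4 to 6 its counts were too low to be tested. Plin4 ran from 1.52 to 24.01 CPM (median 5.91) in wild-type libraries 1 to 3 and from 0.137 to 4.20 CPM (median 1.28) in 4 to 6. The Bmal1-/- medians were 1.54 and 0.703 CPM.

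Markers of some other cells moved with the same numbers, and those of others did not. Cfd, an adipocyte gene, was high in wild-type libraries 1 to 3. Its level was 0 to 114 CPM (median 17.4) in wild-type total libraries 1 to 3, 0 to 1.46 CPM in 4 to 6 and at most 2.07 CPM in Bmal1-/- RNA. Other adipocyte markers were near 0: in wild-type total RNA Adipoq was at most 0.267 CPM, Retn at most 0.762 CPM, Plin1 was at 0 in 34 of 36 libraries and Lep in 36 of 36. Adrb3, also on the list, went the other way, with a mean of 2.73 CPM in wild-type and 13.8 CPM in Bmal1-/- RNA. Fabp4 (12.8 and 10.7 CPM) and Lipe (13.6 and 10.9 CPM) were present in both. The 8 listed adipocyte markers summed to 21.8 to 143 CPM in wild-type total RNA and 17.9 to 60.8 CPM in Bmal1-/- RNA. Markers of Kupffer cells, the macrophages of the liver, summed to a mean of 283 CPM in wild-type libraries 1 to 3 (125 to 707) and 157 CPM in 4 to 6 (87.5 to 259), and to 171 and 180 CPM in Bmal1-/- RNA. Markers of red blood cells summed to 2037 CPM (746 to 5819) and 1019 CPM (301 to 1727) in wild-type, and to 1037 and 949 CPM in Bmal1-/- RNA. In wild-type total RNA stellate cell markers (mean sums of 257 and 233 CPM) and sinusoidal endothelium markers (182 and 192 CPM) differed less. Pancreatic acinar markers went the other way (24.3 and 56.0 CPM). Without the 13 wild-type libraries above 10 CPM of the defining markers, of which only Cfd reached such a level, 5 of 9 genes were called (38.7% of all genes), with G0s2 at -0.75 (adjusted p = 0.0312) and Plin2 at -0.43, while Plin4 was at -0.36 (adjusted p = 0.384). The part of any of these cells in the Cidec and Plin4 results was not tested.

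**Figure D3:**
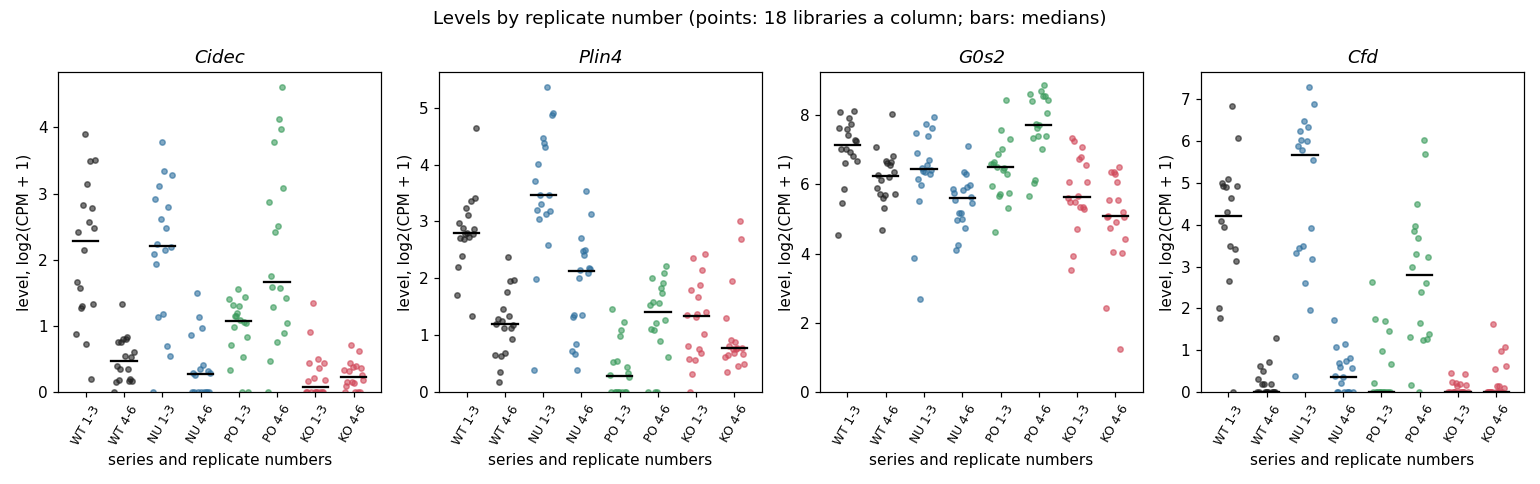
Levels of Cidec, Plin4, G0s2 and Cfd as log2(CPM + 1) in wild-type total (WT), nuclear (NU), polysomal (PO) and Bmal1-/- total (KO) libraries, split by replicate number 1 to 3 and 4 to 6, with points for 18 libraries a column and bars at the medians. Cidec and Cfd are high in WT and NU libraries 1 to 3 and in PO libraries 4 to 6, and low in both KO columns.

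By time of day, ZT10 held the most calls. There 7 of 10 genes were called, 6 lower and 1 higher, against 16.3% of all genes at that time, 8.11% lower and 8.23% higher. At ZT10 the 6 wild-type libraries of Lpin2 (169.8 to 294 CPM) all lay above the Bmal1-/- libraries (64.1 to 121 CPM), a log2 change of -1.54 (SE 0.26, adjusted p = 7.93e-06). Lpin1 libraries did not overlap either: 85.5 to 176 CPM against 25.6 to 79.0 CPM (log2 -1.45, SE 0.51, adjusted p = 0.0393). Pnpla2 (log2 -0.68), Plin2 (-0.64), Dgat2 (-0.38) and Cidec (-3.39) were lower. The Dgat2 call stood at an adjusted p of 0.0497 and was lost without the libraries high in Xist (0.0511) and with median-ratio scaling (0.0502). With replicates 4 to 6 alone the calls of Dgat2 (-0.26, adjusted p = 0.584), Lpin1 (-1.18, 0.434) and Plin2 (-0.46, 0.472) were lost. They were also lost without the wild-type libraries high in Cfd (0.266, 0.285 and 0.390) and with all genes tested (0.112, 0.0784 and 0.0967). The Lpin2 call stood in these settings (adjusted p = 0.0104, 5.35e-04 and 2.64e-05). Plin5, near its daily low at ZT10 in wild-type RNA, was the 1 gene called higher: 29.5 to 93.5 CPM (median 45.1) in Bmal1-/- against 19.9 to 32.97 CPM (median 26.9) in wild-type RNA, groups that overlapped (log2 0.83, SE 0.25, adjusted p = 0.0131).

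The other time points called fewer genes. At ZT2 it was 1 gene, Cidec, which was lower (9.68% of all genes called, 4.78% lower). This Cidec call was lost with all genes tested (adjusted p = 0.0936) and in replicates 1 to 3 alone (0.0872). At no time was Cidec tested in replicates 4 to 6 alone or without the wild-type libraries high in Cfd. At ZT6 it was Plin2 (10.1% of all genes called, 5.09% lower), whose wild-type libraries (258 to 437 CPM) lay above all 6 Bmal1-/- libraries (114 to 214 CPM; log2 -1.13, SE 0.23, adjusted p = 4.65e-04). At ZT14 3 were lower, Lpin2, Cidec and Dgat2 (9.75% of all genes called, 4.98% lower). Dgat2 differed most there, 288 against 207 CPM (log2 -0.57, adjusted p = 0.00345). The Lpin2 and Dgat2 calls at ZT14 were lost with replicates 4 to 6 alone (adjusted p = 0.755 and 0.506). They were also lost without the wild-type libraries high in Cfd (0.329 and 0.142). At ZT18 2 were lower, Lpin2 and Cidec (12.6% of all genes called, 6.15% lower). Lpin2 at ZT18 was at -1.59 in replicates 1 to 3 alone and -0.22 (adjusted p = 0.793) in 4 to 6. Its call was lost without the wild-type libraries high in Cfd too (-0.62, adjusted p = 0.170). At ZT22 3 were lower, Plin2, Plin4 and Cidec (7.05% called, 3.93% lower). The Plin2 call at ZT22 (log2 -0.71, adjusted p = 0.0484) was lost with median-ratio scaling (0.0518), without the wild-type library at ZT2 that was least like its series (0.0517), with all genes tested (0.115), with replicates 4 to 6 alone (-0.17, adjusted p = 0.877) and without the wild-type libraries high in Cfd (-0.33, adjusted p = 0.538). Over the 6 times this made 17 calls in 60 tests. With replicates 4 to 6 alone 3 calls were made in 54 tests, against 5.82% of tests over all genes. Without the wild-type libraries high in Cfd 4 were made in 54, against 6.82%.

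G0s2 was called over the day but at 0 of the single times. At ZT18, where its wild-type mean was highest, wild-type libraries ran from 92.4 to 273 CPM (median 162) and Bmal1-/- libraries from 1.39 to 133 CPM (median 64.3). At ZT6, where its wild-type mean was lowest, they ran from 24.8 to 128 CPM (median 54.0) and from 10.5 to 161 CPM (median 35.9). The groups overlapped at both times. The spread within a group was wide for G0s2 in both genotypes: at ZT2 it ran from 22 to 269 CPM in wild-type RNA and from 4.37 to 66.2 CPM in Bmal1-/- RNA. Cideb, at the other end, stayed between 119 and 363 CPM in all 36 wild-type libraries and between 99.95 and 347 CPM in all 36 Bmal1-/- libraries.

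In nuclear RNA of wild-type livers, which holds new and retained transcripts, 5 of the 10 genes differed from total RNA, 3 higher and 2 lower. Of all genes 83.8% were called in this comparison, 41.6% higher and 42.1% lower. The 3 comparisons with wild-type total RNA share its 36 libraries. Lpin2 was at 357 ± 155 CPM in nuclear and 153 ± 63.6 CPM in total RNA (log2 1.14, SE 0.09, adjusted p = 4.22e-18). At ZT2, ZT6 and ZT10 all 6 nuclear libraries of Lpin2 lay above all 6 total libraries. Plin4 (8.72 against 4.19 CPM, log2 0.93, adjusted p = 0.00831) and Cideb (344 against 263 CPM, log2 0.35, adjusted p = 0.00773) were higher too, but the Cideb call was lost with replicates 4 to 6 alone (0.17, adjusted p = 0.358), with all genes tested (0.25, adjusted p = 0.104) and without the libraries high in Cfd (0.12, adjusted p = 0.443). Plin5 was lower at all 6 times (31.6 against 44.0 CPM, log2 -0.53, adjusted p = 8.63e-10). G0s2 was at 78.6 against 116 CPM (log2 -0.62, adjusted p = 0.00695) and did not pass in replicates 1 to 3 alone (-0.45, adjusted p = 0.175). The test takes all libraries as independent. Yet same-numbered nuclear and total libraries deviated from their groups more alike than others (mean correlation 0.295 against -0.059). With the number as a block, Lpin1 (0.22, adjusted p = 0.0329), Plin2 (-0.16, 0.00859) and Pnpla2 passed too, and Cideb did not.

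In polysomal RNA 7 of the 10 genes differed from total RNA, 5 higher and 2 lower, against 76.1% of all genes, 38.4% higher and 37.6% lower. Dgat2 was at 447 ± 153 CPM in polysomal and 242 ± 50.5 CPM in total RNA (log2 0.80, SE 0.08, adjusted p = 1.25e-14). At ZT6, ZT10, ZT18 and ZT22 the polysomal libraries of Dgat2 all lay above the total ones. Cideb (454 against 263 CPM, log2 0.70, adjusted p = 1.10e-10), Plin2 (464 against 279 CPM, log2 0.62, adjusted p = 5.88e-08) and Pnpla2 (53.4 against 39.6 CPM, log2 0.35, adjusted p = 7.83e-04) were higher at all 6 times. G0s2 was higher at 173 against 116 CPM (log2 0.46, adjusted p = 0.0412), but under median-ratio scaling it did not pass (0.37, adjusted p = 0.0980). Lpin1 was lower at all 6 times, 47.1 against 71.2 CPM (log2 -0.65, SE 0.18, adjusted p = 0.00111), but did not pass in replicates 1 to 3 alone (-0.43, adjusted p = 0.149, against -0.95 in 4 to 6). Pnpla2 did not pass there either (0.26, adjusted p = 0.121). Lpin2 in all libraries stood at 157 and 153 CPM (log2 -0.02, adjusted p = 0.864). Plin5 did not pass either (0.06, adjusted p = 0.550).

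Cidec, Plin4 and G0s2 again depended on the replicate numbers, here with the high libraries numbered 4 to 6. Cidec in polysomal RNA ran from 0 to 1.94 CPM (median 1.11) in libraries 1 to 3 and from 0 to 23.4 CPM (median 2.18) in 4 to 6. Against total RNA of the same numbers it was lower in replicates 1 to 3 (log2 -2.02, adjusted p = 4.94e-05) and higher in replicates 4 to 6 (3.19, adjusted p = 1.91e-08), and over all libraries the log2 difference was 0.15 (adjusted p = 0.747). Plin4 was lower over all libraries (1.03 against 4.19 CPM, log2 -2.05, adjusted p = 2.85e-07), at -4.05 in replicates 1 to 3 and 0.06 in 4 to 6. Plin4 averaged 35.3 counts per library in total and 6.11 in polysomal RNA, so it met the count minimum only through the total libraries. G0s2 was at -0.56 (adjusted p = 0.0714) and 1.35 (adjusted p = 4.82e-06). Cfd was highest in polysomal libraries 4 to 6 (median 6.02 CPM, up to 64.1 CPM) and had a median of 0 in 1 to 3. The Kupffer cell and red blood cell markers were higher in polysomal libraries 4 to 6 as well, with mean sums of 253 against 159 CPM and of 5781 against 3306 CPM. Stellate cell markers were too (279 against 214 CPM). Those of sinusoidal endothelium (163 against 179 CPM) and pancreatic acinar cells (20.5 against 144 CPM) were lower there. The total and polysomal libraries high in Cfd thus carry different numbers.

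The same rhythm test was run on each RNA fraction. In nuclear RNA 5 of 10 genes were called rhythmic (5.99% of all genes) and in polysomal RNA 7 of 9 (7.90% of all genes, Plin4 falling under the count minimum). Lpin1, Lpin2, Plin5, Pnpla2 and Plin2 were called in all 3 wild-type series, Dgat2 in total and polysomal RNA, and Cidec in polysomal RNA alone (adjusted p = 0.0419). The Cidec call was lost without the libraries high in Cfd (0.181) or in Xist (0.0514), and with replicates 4 to 6 alone (0.103). It was also lost with time as a factor (0.0983), with all genes tested (0.0516) and without polysomal replicate 1 (0.0613). G0s2 in polysomal RNA was at 0.0596 and passed without the libraries high in Xist (0.0325). Lpin1 had fitted ratios of 4.65-fold in nuclear, 4.67-fold in total and 4.76-fold in polysomal RNA, with peaks at ZT12.7, ZT14.0 and ZT14.1. Lpin2 peaked at ZT10.6, ZT11.6 and ZT11.8, and Pnpla2 at ZT9.7, ZT10.7 and ZT12.9. In nuclear RNA Lpin1 ran from 107 to 239 CPM at ZT10 (median 162) and from 16.8 to 41.0 CPM at ZT2 (median 27.9). In polysomal RNA it ran from 51.3 to 84.3 CPM (median 71.8) and from 7.47 to 24.8 CPM (median 22). In both fractions the ZT2 and ZT10 groups did not overlap, as in total RNA. For Plin2 the peaks were at ZT4.3, ZT2.8 and ZT3.6, and for Plin5 at ZT19.3, ZT19.7 and ZT20.4. The Plin2 rhythm was lost in replicates 1 to 3 alone in nuclear (adjusted p = 0.711) and polysomal RNA (0.126). It was also lost in polysomal replicates 4 to 6 alone (0.07) and in nuclear RNA with time as a factor (0.26). Plin5 in nuclear RNA ran from 30.0 to 76.9 CPM at ZT18 (median 46.7) and from 13.8 to 23.7 CPM at ZT10 (median 17.2). With replicates 1 to 3 alone 2 of 10 genes were called in nuclear (1.60% of all genes) and 0 of 8 in polysomal RNA (1.12%), and with replicates 4 to 6 alone 4 of 10 were called in polysomal RNA (5.54%).

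No difference in rhythm between fractions passed for these genes. The interaction test called 0 of 10 genes in nuclear against total RNA and 0 of 10 in polysomal against total RNA, with 0% of all genes in both. At an unadjusted p below 0.05 it passed 0 and 1 of the 10, and 244 and 681 of all genes, and DESeq2 called 0 and 9 of all genes. The 1 gene was Dgat2, whose polysomal ratio was 2.04-fold with a peak at ZT15.9 against 1.48-fold at ZT14.0 in total RNA (adjusted p = 0.747). In polysomal RNA Dgat2 ran from 427 to 930 CPM at ZT18 (median 563) and from 223 to 503 CPM at ZT2 (median 306).

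**Figure D4:**
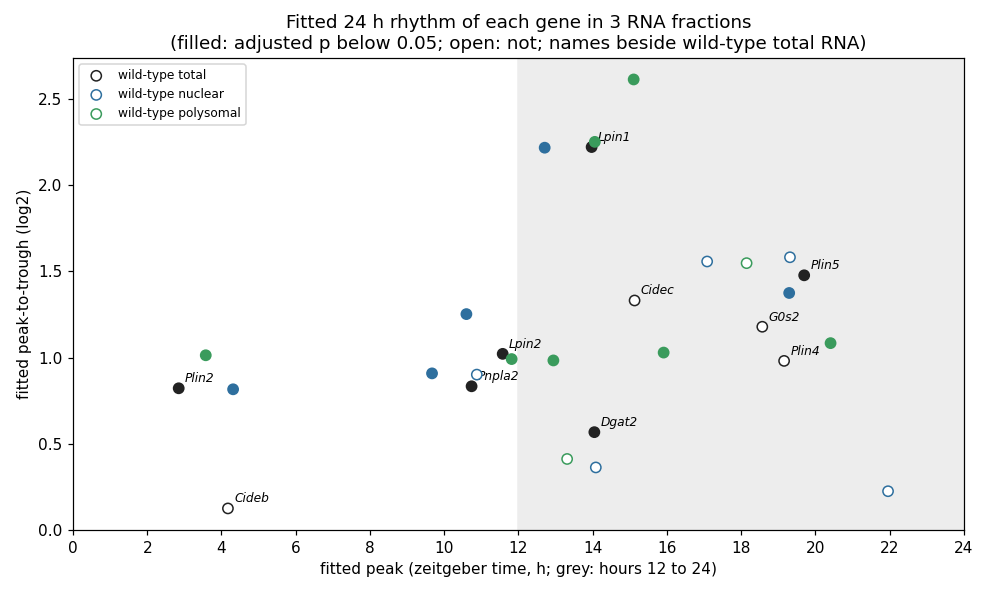
Fitted peak time in hours (horizontal axis) against the fitted peak-to-trough size on the log2 scale (vertical axis) for each gene in wild-type total (black), nuclear (blue) and polysomal (green) RNA, filled where the adjusted p was below 0.05. Lpin1 lies at 2.22 in total and nuclear RNA and 2.25 in polysomal RNA, and Plin2 is the 1 called gene with its peaks in the morning.

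The 3′ reads were also counted by polyadenylation site, and whether each listed site is a true end of transcripts was not tested. Of the sites in the authors' filtered list 23 lay in 9 of the 10 genes, and no site of the list was given to Cidec. Cideb, G0s2 and Plin2 had 1 site each. Plin5 and Pnpla2 had a leading site with more than 95% of their counts in wild-type total RNA. The test of usage (a site's counts relative to its gene's) covered 9 sites with at least 5% of the counts of a gene with 2 or more such sites: 3 in Lpin1, 4 in Lpin2 and 2 in Dgat2. Site positions below are the authors', on chromosomes 12, 17 and 7.

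In Lpin2 the site at the annotated gene end (71249609 to 71249823, plus strand) was little used in nuclei. It took 29.2 ± 4.29% of the counts in total RNA (range 20.6 to 40.0%, n = 36) and 5.79 ± 1.42% in nuclear RNA (range 3.27 to 9.10%), so the libraries did not overlap. The log2 change in usage was -2.34 (SE 0.07, adjusted p = 2.73e-39). The site ending 2485 bp before the gene end (71247184 to 71247333) went from 14.4 to 29.0% (log2 1.02, adjusted p = 2.80e-25), and the site 24707 bp before it (71225072 to 71225111) from 12.0 to 19.6% (log2 0.71, adjusted p = 6.25e-13). The most used site, 1591 bp before the end, took 41.0% in total and 43.7% in nuclear RNA.

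In Lpin1 the sites shifted the other way along the gene. The site at 16536043 to 16536166 (minus strand, 374 bp before the annotated end) took 36.1 ± 4.14% in total and 47.5 ± 8.48% in nuclear RNA (log2 0.40, adjusted p = 5.77e-10). The site farther inside the gene, at 16537076 to 16537236, took 54.9 and 41.2% (log2 -0.40, adjusted p = 5.97e-07). In all, 9 of the 9 sites were called in nuclear against total RNA, against 78.7% of all sites.

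Dgat2 changed most in polysomes. Its inner site (99154375 to 99154518, 712 bp before the gene end) took 5.91 ± 1.31% of the counts in total RNA (range 3.33 to 8.71%), 11.0 ± 2.89% in nuclear RNA and 22 ± 7.12% in polysomal RNA (range 11.3 to 37.3%). The polysomal libraries all lay above the total ones (log2 1.89, SE 0.10, adjusted p = 2.25e-26). In total RNA this rested on a mean of 107.8 counts per library and in polysomal RNA on 457. Polysomal RNA differed from total RNA at 5 of the 9 sites, against 70.5% of all sites. In Lpin2 the end site took 26.0% of polysomal counts, close to total RNA (log2 -0.16, adjusted p = 0.0160), unlike in nuclei.

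**Figure D5:**
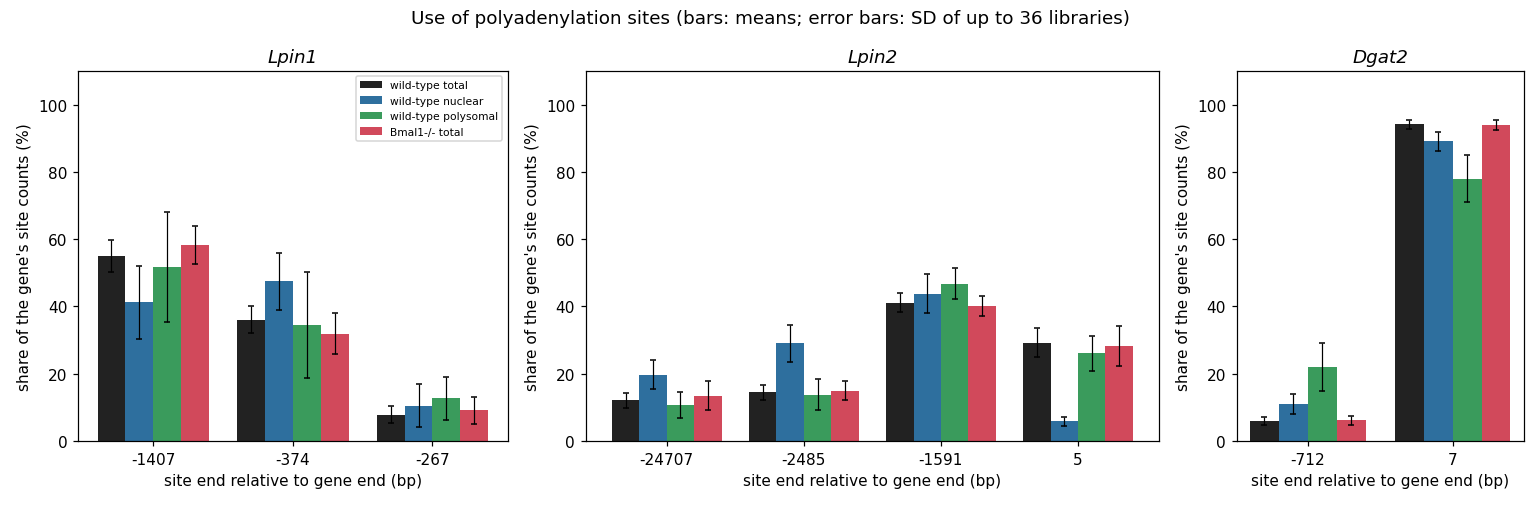
Share of each gene's site counts in percent (vertical axes, bars from 0 with SD) at the tested sites of Lpin1, Lpin2 and Dgat2, placed by the distance of the site's end from the annotated gene end in bp, in the 4 series. The Lpin2 site at the gene end falls from 29.2% in total to 5.79% in nuclear RNA, and the inner Dgat2 site rises to 22% in polysomal RNA.

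In Bmal1-/- RNA few site shares differed. Of the 9 sites 1 was called, against 9.04% of all sites: the Lpin1 site at 16536043 took 36.1 ± 4.14% in wild-type and 31.9 ± 6.07% in Bmal1-/- RNA (log2 -0.17, SE 0.05, adjusted p = 0.0212). It did not pass in replicates 4 to 6 alone (-0.11, adjusted p = 0.225). The inner Dgat2 site took 5.91 and 6.09%, and the Lpin2 end site 29.2 and 28.3%. A daily rhythm in usage was called at 0 of the 9 sites in wild-type total RNA, against 0.351% of all sites, with 1 of the 9 at an unadjusted p below 0.05, the inner site of Dgat2.

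Other genes of triacylglycerol and droplet metabolism, 34 in a list drawn up from their known roles, were tested in the same fits. In Bmal1-/- against wild-type total RNA 18 of the 30 with enough counts were called, 15 lower and 3 higher, against 44.2% of all genes, 22.4% lower and 21.7% higher. Their median log2 change was -0.18. The largest falls were in Pnpla3, a droplet lipase of the PNPLA2 family (2.68 ± 3.51 to 0.282 ± 0.650 CPM, log2 -3.75, adjusted p = 1.04e-08), and Fitm1, a droplet assembly protein (28.9 to 3.19 CPM, log2 -3.34, adjusted p = 1.60e-17). Pnpla3 was rare, like Cidec, and its SD was larger than its mean in both genotypes. Agpat5, an acyltransferase, rose by 0.45 and Hilpda, another inhibitor of PNPLA2, by 0.23. By role, 7 of 8 listed lipolysis genes were called (6 lower), 4 of 8 droplet coat and assembly genes (all 4 lower) and 6 of 10 synthesis genes (4 lower), and the shares of the last 2 groups called are near that of all genes.

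Dgat1, the other enzyme of the last step of synthesis, was at 16.1 CPM in total, 71.0 CPM in nuclear and 47.8 CPM in polysomal RNA (log2 2.12 and 1.49, adjusted p = 6.32e-28 and 1.98e-23). In nuclear RNA 19 of 30 listed genes were called (12 higher, 7 lower), a smaller share than the 83.8% of all genes, and in polysomal RNA 23 of 29 (17 higher, 6 lower), near the 76.1% of all genes. Abhd5, the activator of PNPLA2, was lower in nuclei (log2 -1.60), and Mgll, which cleaves the last fatty acid, was higher on polysomes (722 against 210 CPM, log2 1.71). Among the listed genes the largest nuclear rise was in Pnpla3 (20.8 ± 34.9 against 2.68 ± 3.51 CPM, log2 2.75). Ces1d fell most in nuclei (log2 -2.02). On polysomes Hsd17b13 (-1.34) and Ces1d (-1.16) fell most. In wild-type total RNA 8 of 31 listed genes were rhythmic, not far from the 18.9% of all genes, led by Gpat4 (1.74-fold, peak at ZT15.4), Mgll (1.72-fold, ZT16.0) and Tm6sf2 (1.65-fold, ZT21.4). In Bmal1-/- RNA 0 of 29 were.

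For each of the 10 genes the most alike genes were sought over the 12 means of wild-type and Bmal1-/- total RNA by time, among 8161 genes averaging 50 counts or more, as Pearson's r of log2 levels. Lpin1 was most like Usp2 (r = 0.97) and Wee1 (0.95), and Lpin2 most like Mknk2 and Pcsk4 (both 0.97). For Plin2 it was Eml2 (0.93), for Plin5 Ahsa1 (0.90), for Pnpla2 Rere (0.92), for Dgat2 Prodh (0.93) and for G0s2 Ptpmt1 (0.97). Cidec (Aatk, 0.95), Plin4 (Shb, 0.95) and Cideb (Shprh, 0.91) complete the set. The 12 means share libraries and depth, and the nearest of so many genes is close by selection, so these are descriptions.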

How the data were processed

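The authors deposited raw counts per gene and per polyadenylation site, 1 column per library, with a filtered list of sites. STAR 2.4.2a, edgeR, HOMER, mm10 and GRCm38.p5 are named in the submitters' processing notes, which give no step or role here. How the counts treat strand, overlapping genes or similar copies is not given in the sources used here. The members and gene lists were chosen with earlier results of these data known.

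Groups and numbers came from the sample titles, and 0 columns were left without a sample. The deposited counts were tested in R 4.3.3 with edgeR 4.0.16 (robust quasi-likelihood F tests, TMM, Benjamini-Hochberg over all genes, threshold 0.05) on genes averaging 10 counts or more per library. Levels compare the mean of the 6 time-point means. Sites were given to genes on the same strand, up to 1000 bp past the end, through RefSeq GRCm38.p6 positions. The strand of Dgat2 came from its site counts. Usage took the log of the gene's site counts plus 0.5 as an offset, for genes averaging 50 counts or more. No library was treated as a copy: of 360 pairs within groups 0 held equal counts, and chi-square divided by its degrees of freedom was 4.03 or more. On simulated counts the level test found 87 of 100 genes changed 1.5-fold and 100 of 100 changed 2-fold. DESeq2 1.42.0, median-ratio scaling, no count filter, replicates 1 to 3 or 4 to 6 alone, a replicate block and left-out libraries were alternatives. The 2 on libraries with high Xist and on the wild-type library at ZT2 were chosen after seeing the data. All 10 genes are named. Of the other listed genes, those with the largest level changes past the threshold and the largest called rhythms in wild-type total RNA are.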

Additional observations from a re-analysis of the deposited data

Results flagged for a closer look

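In 13 of 240 groups of 6 libraries (a gene in a series at a time) the highest or lowest library stood apart by Dixon's criterion at 95% on log2(CPM + 1). Chance gives about 1 in 20 groups, so this number is near that. Libraries above the others were Lpin1 in Bmal1-/- at ZT22 replicate 2 (156.3 CPM, the others 21.2 to 44.8) and Plin5 in the same library (84.91 CPM, the others 33.4 to 43.8), Lpin1 in wild-type total RNA at ZT2 replicate 3 (31.39 CPM), Dgat2 in Bmal1-/- at ZT18 replicate 5 (343.9 CPM) and Dgat2 in wild-type total RNA at ZT10 replicate 1 (363.8 CPM). Libraries below the others were Cideb in Bmal1-/- at ZT6 replicate 1 (99.95 CPM, the others 227 to 347) and in wild-type total RNA at ZT22 replicate 3 (118.6 CPM), and G0s2 in Bmal1-/- at ZT2 replicate 4 (4.373 CPM, the others 32.5 to 66.2). In polysomal RNA they were Lpin1 (7.468 CPM) and Lpin2 (74.68 CPM), both at ZT2 in replicate 2, and Pnpla2 at ZT14 replicate 3 (15.52 CPM, the others 56.8 to 95.7). In nuclear RNA they were Dgat2 at ZT6 replicate 1 (142.4 CPM) and Pnpla2 at ZT22 replicate 4 (16.38 CPM).

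The rhythm differed between genotypes for Pnpla2 (adjusted p = 0.0354) and Dgat2 (adjusted p = 0.0239) in the edgeR interaction test. Both had a fitted ratio nearer to 1 in Bmal1-/- (1.18-fold and 1.07-fold) than in wild-type total RNA (1.78-fold and 1.48-fold). For Dgat2 the adjusted p of this test was 0.492 with replicates 4 to 6 alone and 0.243 without the libraries high in Cfd.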

How the results depend on the processing

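Of 881 values of single genes and sites under an alternative, 750 kept their direction and side of the threshold, 92 lost the call, 19 gained it and 20 changed sign. Depth limits Cidec and Plin4 most, with series means from 0.2203 to 8.72 CPM. The cause of the changes below was not tested.

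Counts of called members moved as follows. With replicates 4 to 6 alone, 2 were called in Bmal1-/- level, 3 over the time points, 3 in wild-type rhythm, 4 in polysomal rhythm, 0 in the genotype difference of rhythm and 0 in Bmal1-/- site usage. With replicates 1 to 3 alone, 2 were called in nuclear rhythm, 0 in polysomal rhythm and 1 in the genotype difference of rhythm. Without libraries high in Cfd, 4 calls were left over the time points, 4 in polysomal rhythm and 1 in the genotype difference. Testing all genes with at least 1 count left 10 calls over the time points. With time as a factor, 3 were rhythmic in nuclear and 4 in polysomal RNA. DESeq2 called 5 genotype differences of rhythm.

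Counts over all genes moved too. With replicates 4 to 6 alone they were 4217 over the time points, 622 in wild-type, 0 in Bmal1-/- and 237 in nuclear rhythm, 200 genotype and 2 polysomal differences of rhythm and 3 sites with rhythmic usage. With replicates 1 to 3 alone they were 1342 in wild-type, 0 in Bmal1-/-, 174 in nuclear and 115 in polysomal rhythm, 236 genotype differences, 762 Bmal1-/- sites and 7 rhythmic sites. Without libraries high in Cfd they were 4918 over the time points, 1133 in wild-type and 394 in nuclear rhythm. With time as a factor they were 1411, 3, 419 and 346 in wild-type, Bmal1-/-, nuclear and polysomal rhythm. Testing all genes with at least 1 count gave 21 in Bmal1-/- and 2107 in polysomal rhythm, and 5 nuclear and 424 polysomal differences. In Bmal1-/- rhythm DESeq2 and leaving out libraries high in Xist gave 0. For polysomal differences of rhythm DESeq2 gave 9, and leaving out polysomal replicate 1 gave 7.

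With the replicate number as a block, 2 member sites were called in Bmal1-/- usage (1985 of all sites), 0 genes in Bmal1-/- rhythm, 1506 in polysomal rhythm, 1 in the nuclear difference of rhythm and 96 sites with rhythmic usage. For nuclear against total RNA the block called 7 members, with Lpin1 (0.22), Pnpla2 (-0.18) and Plin2 (-0.16) gained and Cideb (0.22, adjusted p = 0.0811) lost, and for G0s2 it gave rhythm in wild-type (adjusted p = 0.0268), nuclear (0.0276) and polysomal RNA (0.0177), and lost its polysomal level (0.159). Deviations of same-numbered libraries had a mean correlation with wild-type total RNA of 0.295 in nuclear RNA (34 of 36 pairs above 0.1, 29 closest to their own number), -0.109 in polysomal (0 pairs above 0.1) and 0.066 in Bmal1-/- RNA. Between other numbers the nuclear mean was -0.059. The library high in Xist at ZT22 was number 5 in both total and nuclear wild-type RNA, 1 in polysomal and 6 in Bmal1-/- RNA. The labels name no shared animal, and the numbers are not taken as pairs. Same-numbered total and nuclear libraries were thus more alike than others, and the labels do not say whether they share a liver.

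The 20 changes of sign came in alternatives where the value did not pass, except Cidec in polysomal RNA with replicates 1 to 3 alone (-2.02). With replicates 4 to 6 alone they were Plin5 in Bmal1-/- (0.048), Dgat2 in nuclear (-0.037), Plin4 (0.060) and Plin5 (-0.041) in polysomal RNA, Cideb in nuclear rhythm (-0.041), Lpin2 sites 71247184 (-0.054) and 71249609 (0.050) in Bmal1-/- and Lpin1 site 16537076 (0.071) in polysomal RNA. With replicates 1 to 3 alone they were G0s2 (-0.56), Lpin1 site 16536043 (0.028) and Lpin2 site 71247184 (0.11) in polysomal RNA and Cideb in wild-type rhythm (-0.12). Polysomal Plin5 was at -0.0267 with median-ratio scaling, -0.0271 with DESeq2 and -0.010 with all genes tested. Nuclear Cidec was at -0.070 with all genes tested and -0.023 with the block. Without libraries high in Cfd nuclear Dgat2 was at -0.055 and polysomal Lpin2 at 0.22.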
